A study of Mus musculus with 6 samples.

Results

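Small nucleolar RNA (snoRNA) host genes are genes whose introns carry snoRNAs. The 7 noncoding hosts described here are Gas5, Zfas1, Snhg1, Snhg4, Snhg12, Snhg14 and Snhg18. They were found through the array's annotation table as every probe set (a group of short probes read as 1 value) assigned to 1 of these symbols and to no other gene. This gave 16 of 45037 probe sets: 5 for Snhg1, 4 for Gas5, 3 for Snhg14 and 1 for each of the others. The genes were picked with the dKO against control differences of these arrays already known, so those differences are a description, given without p-values. Where a host probe set is said to be past limma's threshold or not, that too describes it and is no test.

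Expression was measured by microarray in long-term haematopoietic stem cells, the marrow cells that renew blood for life, the sort gate being Lin-Sca1+CD150+CD48-. The mice were 8 weeks old and of mixed background. The dKO group carried MxCre and floxed alleles of both c-myc (gene symbol Myc) and N-myc (gene symbol Mycn). The control group carried the same floxed alleles without MxCre, so the recombinase itself also differed between the groups. The label of control replicate 2 reads M-Myc where the other labels read N-myc. All mice had received pI-pC, a synthetic double-stranded RNA, on 2 days, the last dose 3 days before the marrow was taken. MxCre is driven by an interferon-responsive promoter that is not restricted to stem cells. Each group had 3 arrays, each from its own pool of 3 dKO or 2 control mice. The comparison asks which transcripts differ shortly after loss of both Myc genes.

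SnoRNAs guide enzymes to ribosomal RNA in the nucleolus. Box C/D snoRNAs guide 2'-O-methylation and box H/ACA snoRNAs guide pseudouridylation. Most mammalian snoRNAs are cut out of the introns of a host transcript, and the spliced host is then exported. Noncoding hosts such as Gas5 are translated briefly and cleared by nonsense-mediated decay, so the level of the spliced host depends on both its synthesis and its decay. Many hosts belong to the TOP class, whose RNAs begin with a C followed by a run of pyrimidines, as ribosomal protein mRNAs do, and whose translation follows growth signals. The 16 probe sets are assigned to the host genes and are not taken as a measure of mature snoRNAs.

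The hosts differ in how many snoRNAs they carry. In the RefSeq gene table of assembly GRCm38.p6, 8 snoRNA genes lie inside Gas5, on chromosome 1, and 8 inside Snhg1, on chromosome 19. Zfas1 (chromosome 2) holds 3, among them Snord12, and Snhg12 (chromosome 4) holds 4, the H/ACA genes Snora16a, Snora44 and Snora61 and the C/D gene Snord99. Snhg4 and Snhg18 (chromosome 15) hold 1 each, Snora74a and Snord123. Snhg14 (chromosome 7) stands apart in size, with 206 snoRNA genes inside it. It is the long imprinted transcript that runs antisense to Ube3a.

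Start sites are shown for 5 of the hosts because the TOP class is defined by the first bases of the RNA. RefSeq promoter windows of 6 of the genes were used, with 7 annotated starts. For Gas5, which has 2, the start with a pyrimidine run is shown. Each line runs 5′ to 3′ from 60 bases before to 50 bases after the start. Capitals mark an unbroken run of C and T, beginning with C and at least 4 bases long, that includes the first transcribed base. They also mark the letters TATA where all of these lie between 45 and 20 bases before the start.
Gas5, GRCm38.p6 chr1:161035106-161035215, plus strand: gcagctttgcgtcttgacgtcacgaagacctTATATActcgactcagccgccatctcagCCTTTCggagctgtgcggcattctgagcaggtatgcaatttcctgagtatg
Snhg1, GRCm38.p6 chr19:8723427-8723536, plus strand: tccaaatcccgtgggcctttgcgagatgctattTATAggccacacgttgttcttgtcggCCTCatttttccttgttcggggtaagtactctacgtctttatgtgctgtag
Snhg12, GRCm38.p6 chr4:132308618-132308727, plus strand: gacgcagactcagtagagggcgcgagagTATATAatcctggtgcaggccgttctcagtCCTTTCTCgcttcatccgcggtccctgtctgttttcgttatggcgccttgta
Zfas1, GRCm38.p6 chr2:167062874-167062983, plus strand: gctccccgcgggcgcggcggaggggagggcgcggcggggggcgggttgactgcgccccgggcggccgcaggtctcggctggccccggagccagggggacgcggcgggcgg
Snhg14, GRCm38.p6 chr7:60450128-60450237, minus strand: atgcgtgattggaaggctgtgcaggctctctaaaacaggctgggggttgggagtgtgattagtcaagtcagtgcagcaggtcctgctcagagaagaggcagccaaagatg

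Gas5, Snhg1 and Snhg12 carried both features. Their pyrimidine runs, of 6, 4 and 8 bases, span the annotated start, and TATA lies upstream of each. Snhg18, not printed, has a longer run of 10 bases at its start and no TATA in that stretch. The windows of Zfas1 and Snhg14 held neither feature, and the same was true of the other annotated Gas5 start. In all, 4 of the 7 host windows had such a run, against 11.3% of the 32851 windows in the table, and 3 had TATA, against 6.17%. The search over all windows also accepted runs that begin at the base after the first transcribed base. The E-box CACGTG, a sequence that Myc and its partner Max can bind and that reads the same on both strands, was in 0 of the 7 full windows of 300 bases and in 7.15% of all windows. Other noncoding hosts had a run in 14.3% of 14 windows and CACGTG in 14.29%. For ribosomal protein genes that host snoRNAs the shares were 22.2% and 11.11% of 18 windows. For other coding TOP genes they were 45.5% and 18.18% of 11 windows. Annotated starts can be off by some bases, and a match or its absence describes only these letters.

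The deleted genes check the labels. Myc, a growth-promoting transcription factor, read 10.40, 10.57 and 10.11 in controls and 7.28, 7.77 and 7.24 in dKO arrays (log2 RMA values). Its relative Mycn, by probe set 1417155_at, read 10.80, 10.87 and 10.76 in controls and 3.40, 3.81 and 3.17 in dKO arrays. Both separated every dKO from every control array, with limma adjusted p = 0.00137 and 2.34e-05. The other Mycn probe sets differed by -1.61 ± 0.22 and, near background, by -0.08 ± 0.18 (SE), with limma adjusted p = 0.00938 and 0.858. Of 8 measured stem cell markers, all were above background, and 3 were called lower and 1 higher. The receptors Tek and Kit fell by 2.25 ± 0.18 and 0.87 ± 0.12 (SE) and the transcription factor Hlf by 1.66 ± 0.28, with limma adjusted p = 0.0022, 0.0101 and 0.0178. The transcription factor Gata2 rose by 0.63 ± 0.13 (limma adjusted p = 0.0363). The other 4 did not pass, among them Slamf1, which encodes the sorted CD150 (9.16 in control, 9.24 in dKO, limma adjusted p = 0.855). Among the megakaryocyte and platelet markers, 3 of 7 were higher and 1 lower. Ppbp rose by 5.67 ± 0.30 (SE, limma adjusted p = 0.000511), Itga2b by 1.16 ± 0.17 (0.0104) and Pf4 by 1.11 ± 0.20 (0.023). Vwf fell by 1.04 ± 0.17 (limma adjusted p = 0.0162). The summed signal of the 7 (log2) ran from 11.66 to 11.89 on control arrays and from 12.81 to 13.49 on dKO arrays. The ranges for 8 macrophage markers were 8.18 to 8.45 and 8.59 to 8.88 (1 called higher), and for 6 erythroid markers 8.88 to 9.01 and 7.77 to 8.50 (1 called lower, Hba-a1 at background). Granulocyte markers (10, Lcn2 at background) ranged over 9.86 to 11.48 and 8.61 to 10.42, T and NK markers (8, Ncr1 at background) over 9.42 to 9.67 and 9.32 to 9.70, and B cell markers (7, Ms4a1 at background) over 8.65 to 9.51 and 8.55 to 9.31. In these 3 lists 0 genes passed limma's adjusted test, and at an unadjusted p under 0.05 there were 2, 0 and 0. Gapdh signal fell off from the 3' to the 5' end, which tracks RNA quality, by 2.12 to 2.36 on control arrays and by 2.39 to 2.47 on dKO arrays. The same measure for actin overlapped between the groups, at 0.10 to 0.23 on control and 0.20 to 0.21 on dKO arrays. The part of these marker and quality differences in the host gene values was not tested.

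All 16 probe sets had a lower mean in dKO than in control arrays. On 15 of them every dKO array was below every control array, a pattern found at 14.0% of all probe sets in that direction. Both counts include 2 probe sets, Snhg14 1436964_at and Snhg18 1429027_at, whose means were at background in both groups. Their differences give no measure of a change. Of the 16, 11 were lower past a limma adjusted p of 0.05 and 0 were higher, against 3.41% of all probe sets called lower and 3.57% called higher, or 6.99% in either direction. Taking the representative probe set of each gene (the brightest on average across arrays), 6 of the 7 genes were called lower, all but Snhg18. The median difference over the 16 was -0.996 on the log2 scale, against -0.01 over all probe sets tested. Over the 14 with a group mean above background it was -1.03. These counts follow from how the genes were picked and are not evidence of their own. In bulk samples, fewer cells that express a gene and less RNA per cell cannot be told apart.

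**Figure D1:**
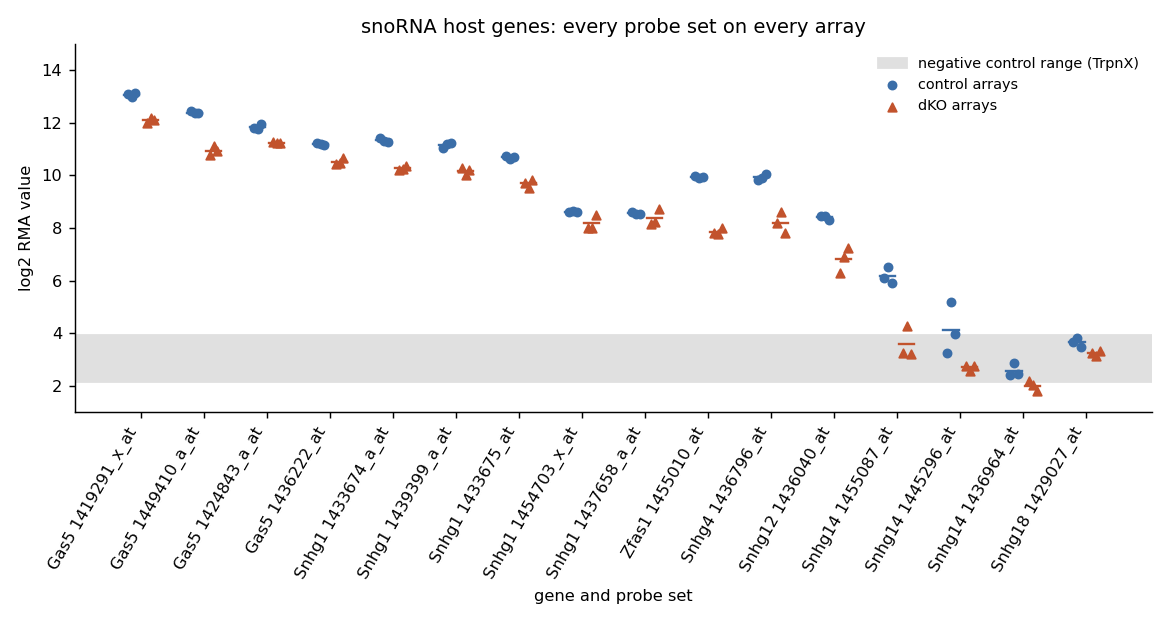
Log2 RMA value (vertical axis) of each of the 16 probe sets (horizontal axis) on each array, with control arrays as circles, dKO arrays as triangles, short lines at the group means and a grey band at the range of 3 negative control probe sets, 2.13 to 3.92. The groups are apart for every probe set but Snhg1 1437658_a_at, and 2 probe sets, Snhg14 1436964_at and Snhg18 1429027_at, have both group means in or below the grey band.

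Gas5, growth arrest-specific 5, is a C/D snoRNA host whose spliced RNA accumulates in cells that stop growing and whose decay depends on translation. By probe set 1449410_a_at the control arrays read 12.43, 12.37 and 12.37 and the dKO arrays 10.79, 11.10 and 10.91 (log2 RMA values). The groups were apart by far more than their own spread. The difference was -1.46 ± 0.14 (SE), a level 2.75-fold lower in dKO cells. By 1419291_x_at, the representative probe set, the controls read 13.08, 13.00 and 13.14 and the dKO arrays 12.00, 12.19 and 12.10. Again no array crossed over, with a difference of -0.98 ± 0.13 (SE). The remaining probe sets, 1424843_a_at and 1436222_at, differed less, by -0.61 ± 0.13 and -0.67 ± 0.13 (SE). All 4 were thus lower in dKO cells, by unequal amounts. Neither of these smaller falls passed once an array, whichever it was, was dropped. A further probe set, assigned to both Snord47 and Gas5 and therefore not counted among the 16, differed by -0.67 ± 0.15 (SE). Probe sets assigned to the snoRNA symbols Snord104 and Snord89 alone differed by -0.86 ± 0.13 and -0.39 ± 0.31 (SE). Their limma adjusted p was 0.0125 and 0.532. Which RNA these probe sets read was not tested.

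Snhg1 hosts C/D snoRNAs, among them Snord22. Of its 5 probe sets, 3 gave nearly the same difference: -1.06 ± 0.13 for 1433674_a_at, -1.0004 ± 0.14 for 1439399_a_at and -0.99 ± 0.14 for 1433675_at (SE, log2). On 1433674_a_at the controls were at 11.42, 11.30 and 11.28 and the dKO arrays at 10.21, 10.25 and 10.37. Levels were thus about 2.08-fold lower by this probe set, and no array crossed over. The other 2 probe sets were not past the threshold. On 1454703_x_at the controls were at 8.61, 8.63 and 8.59, and the dKO arrays at 8.02, 7.99 and 8.51. On 1437658_a_at the controls were at 8.61, 8.52 and 8.54, and the dKO arrays at 8.16, 8.24 and 8.74. In both, dKO replicate 3 stood near or above the controls while the other dKO arrays lay below them. In the array maker's naming, _x_at marks a set with probes that may also match other transcripts, and _a_at one that reads several transcripts of a gene. Both suffixes also occur among host probe sets past the threshold, such as Gas5 1419291_x_at and Snhg1 1433674_a_at.

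Zfas1 hosts C/D snoRNAs of the Snord12 group and starts beside Znfx1 on the opposite strand. Its single probe set, 1455010_at, had the tightest control group of the single-probe-set hosts, at 9.97, 9.91 and 9.93, with dKO values of 7.80, 7.76 and 8.01. The gap between the lowest control and the highest dKO array, 1.91 on the log2 scale, was the widest of the 16 probe sets. The difference of -2.08 ± 0.13 (SE) is a level 4.24-fold lower.

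Snhg12 carries snoRNAs of both classes. Its controls were close together, at 8.47, 8.47 and 8.28, and its dKO arrays spread over 6.28, 6.91 and 7.23. All dKO arrays were nevertheless below all controls, with a difference of -1.60 ± 0.24 (SE), or 3.04-fold. Snhg4, the host of the H/ACA snoRNA Snora74a, read 9.83, 9.90 and 10.06 in controls and 8.19, 8.61 and 7.80 in dKO arrays. The difference was -1.73 ± 0.22 (SE), or 3.32-fold. The differences of Snhg4 and Snhg12 lay within 1 SE of each other. The dKO array that was lowest was not the same for both: replicate 1 for Snhg12 and replicate 3 for Snhg4.

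Snhg14 was measured near the floor of the array. Its brightest probe set, 1455087_at, read 6.10, 6.52 and 5.91 in controls and 3.25, 4.26 and 3.19 in dKO arrays. The groups did not overlap, and the measured difference of -2.61 ± 0.31 (SE) was the largest of the 16. The dKO mean of 3.57 lay within the negative control range, so the fall is a lower bound of at least 4.79-fold against the highest negative control value. Its second probe set, 1445296_at, was uneven among the controls, at 3.23, 5.18 and 3.98, with dKO values of 2.75, 2.57 and 2.77. The third, 1436964_at, had both means within or below the negative control range (2.57 and 2.00) and gives no measure of a change. Snrpn, a coding gene inside Snhg14 with an imprinted promoter of its own, differed by -0.24 ± 0.12 (SE, limma adjusted p = 0.319).

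Snhg18, the host of Snord123, could not be followed. Its only probe set, 1429027_at, read 3.66, 3.81 and 3.46 in controls and 3.24, 3.14 and 3.32 in dKO arrays. All 6 values lie within the negative control range, so its difference of -0.41 ± 0.15 (SE) gives no measure of a change.

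Among the hosts above background in both groups, the differences by representative probe set were, from the largest, those of Zfas1, Snhg4, Snhg12, Snhg1 and Gas5. Snhg14 is left out of this order because its dKO mean was at background. Averaged over its 3 probe sets, the Snhg14 difference was -1.54. That average takes in 1436964_at, at background in both groups, and every dKO mean in it was at background. It is therefore no measure of the size of the fall. Snhg1 and Gas5 lay within 1 SE of each other, as did Snhg4 and Snhg12, so the order inside each pair is not resolved. The order also depends on the probe set. By 1449410_a_at, Gas5 differed by -1.46 ± 0.14 (SE), a larger fall than that of Snhg1 (-1.06 ± 0.13). Differences between hosts were not tested. The SD was larger among dKO than among control arrays at 12 of the 16 probe sets and at 48.15% of all probe sets. The exceptions were Gas5 1424843_a_at, Snhg14 1445296_at and 1436964_at, and Snhg18. Several probe sets of a gene on the same arrays are not independent, so the count is only a description.

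**Figure D2:**
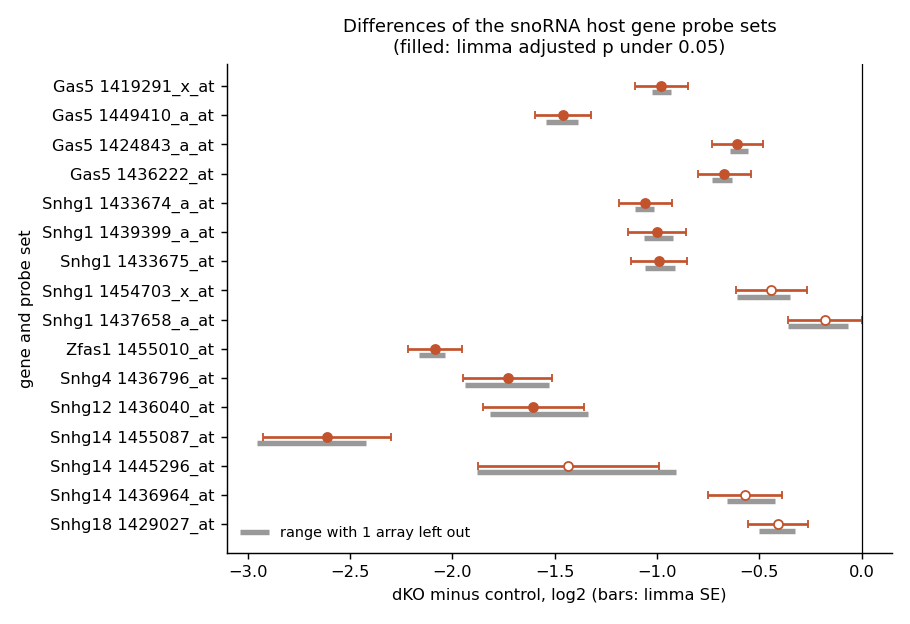
Difference between dKO and control means (horizontal axis, log2) for each probe set (vertical axis), with bars for limma's SE, filled points past a limma adjusted p of 0.05 and grey bars for the range when 1 array is left out. The differences run from -2.61 for Snhg14 1455087_at to -0.18 for Snhg1 1437658_a_at, and the grey bars of all 16 stay below 0.

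The gene lists below were chosen with earlier results of these data known. Their counts and p-values are a description and no support of their own for the host gene falls. Other noncoding snoRNA hosts were mostly lower as well. Of 11 with a probe set, 6 fell and 1 rose by limma's test (median -0.70), where 3.56% of all 18193 genes were called lower and 4.49% higher (median 0.01). Snhg6 fell by 1.26 ± 0.14 (SE, log2, limma adjusted p = 0.00492), Dancr, host of an H/ACA snoRNA, by 1.29 ± 0.21 (0.0154) and Snhg8 by 0.89 ± 0.14 (0.0156). The other falls were those of Snhg3, Snhg5 and Snhg7, from 0.66 for Snhg5 to 1.63 for Snhg3. Snhg3 controls ran from 8.26 to 9.43, above dKO values of 7.12 to 7.46. Rian, the imprinted host of a C/D cluster near Meg3, went the other way, from 5.09, 4.90 and 4.02 in controls to 6.38, 7.29 and 6.20 in dKO arrays, a rise of 1.96 ± 0.37 (limma adjusted p = 0.0258). Snhg10, Snhg11, Snhg16 and Snhg17 did not pass, with differences of -0.63, -0.05, 0.09 and -0.70. Dropping dKO replicate 1 left 1 fall and dropping dKO replicate 3 left 2. Dropping any other single array left 3. The count of rises, which is Rian alone, was 1 without control replicate 1 and without dKO replicate 3, and 0 in the remaining leave-outs.

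Ribosomal protein genes that carry snoRNAs were lower too. Of 13 measured, 5 fell and 0 rose, with a median of -0.46, and all 13 differences were below 0. Rpl27a fell by 1.07 ± 0.14 (SE, log2), Rpsa, the laminin receptor protein of the small subunit, by 0.82 ± 0.12 and the stalk protein Rplp2 by 0.77 ± 0.13, with limma adjusted p of 0.0073, 0.0119 and 0.0186. At an unadjusted p under 0.05, 11 of the 13 were lower and 0 higher, where 10.8% of all genes were lower and 12.3% higher. Averaged over its probe sets, the Rpl27a difference was -0.60 (limma adjusted p = 0.0208). Rpl13a, host of several C/D snoRNAs, differed by -0.20 ± 0.12 (0.411). Rpl37, counted among these 13 and 11, was at background in both groups, so its difference gives no measure of a change. The count was 11 with a trended robust prior and with the mean over the probe sets of a gene. It was 2 if dKO replicate 1 or dKO replicate 2 was dropped, and 3 if any other array was.

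Among 25 other protein-coding hosts, 4 fell and 0 rose, with a median of -0.28. At an unadjusted p under 0.05, 12 were lower and 1 higher. The falls were those of Eef2, the elongation factor that moves the ribosome (-1.05 ± 0.13 SE), the pseudouridine synthase Dkc1 (-1.04 ± 0.14), Eef1b2, an exchange factor of elongation (-0.95 ± 0.13), and Nop56 (-0.77 ± 0.12). Their limma adjusted p ran from 0.00651 to 0.0156. Hosts that did not pass included Hspa8, Ncl and Tpt1, with differences of 0.10, -0.33 and -0.05. The count was 7 with a trended robust prior and with probe set means. The Eef2 call was lost with the mean over its probe sets, which gave -0.21 (limma adjusted p = 0.393).

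The proteins that make up and assemble snoRNA particles showed 6 falls and 0 rises among 17 genes (median -0.50, 12 lower and 0 higher at an unadjusted p under 0.05). Dkc1 is the catalytic subunit of H/ACA particles, and its partners Nhp2 and Gar1 fell by 0.80 ± 0.16 and 0.73 ± 0.15 (SE, log2), with limma adjusted p of 0.0282 and 0.0331. Naf1, an H/ACA assembly factor, fell by 0.93 ± 0.19 and the nucleolar chaperone Nolc1 by 0.95 ± 0.14 (0.0319 and 0.0117). Of the C/D core, Nop56 fell, while the methyltransferase Fbl (-0.66 ± 0.16, limma adjusted p = 0.0528) and Nop58 (-0.34 ± 0.12, 0.166) did not pass. Whether the H/ACA and C/D cores differ from each other was not tested. The count was 3 without control replicate 1 and 2 without control replicate 2, dKO replicate 1 or dKO replicate 3.

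Of 14 further coding TOP genes, 9 fell and 0 rose (median -0.60, 12 lower and 0 higher at an unadjusted p under 0.05). They are mostly translation factors, but include Fau, which encodes a ribosomal protein fused to a ubiquitin-like protein and is among the falls (-0.65 ± 0.12 SE, limma adjusted p = 0.0238). Eif4b, which assists the initiation helicase, fell by 1.23 ± 0.13 and the initiation factor subunit Eif3f by 1.11 ± 0.13 (SE, log2), with limma adjusted p of 0.0042 and 0.00609. Eef2 and Eef1b2, given above, are also in this list. Eef1a1 and Tpt1, TOP genes as well, differed by -0.15 ± 0.12 and -0.05 ± 0.12 (limma adjusted p = 0.563 and 0.86). With 1 array left out 4 fell, or 5 without control replicate 3.

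Among genes that control TOP translation or clear noncoding hosts, some fell and most did not pass the test. Of 16 in the TOP control list, 3 fell and 0 rose (median -0.17), where 3.56% of all genes were called lower and 4.49% higher. At an unadjusted p under 0.05, 5 were lower and 3 higher, where 10.8% and 12.3% of all genes were. The falls were those of Deptor, an inhibitor of the kinase mTOR (-1.60 ± 0.33 SE), and the translation repressors Eif4ebp1 (-0.80 ± 0.16) and Eif4ebp2 (-0.76 ± 0.17), with limma adjusted p of 0.0319, 0.0323 and 0.0404. With 1 array left out 1 fell without control replicate 1 or dKO replicate 1, and 0 fell without the other replicates. Averaged over the probe sets of each gene, the differences were smaller, at -0.87, -0.46 and -0.45, and past the threshold. Larp1, which binds TOP starts, differed by -0.52 ± 0.13 (0.066). Of 10 decay genes, 1 fell, the endonuclease Smg6 (-0.60 ± 0.13, limma adjusted p = 0.0446), and 0 rose (1 at an unadjusted p under 0.05, Smg5 at 0.35). The decay list had a median of 0.03. Its helicase Upf1 differed by 0.12 ± 0.14 (0.671) and the exon junction protein Rbm8a by 0.31 ± 0.17 (0.354). Smg6 no longer passed after dropping any single array, and the mean over its probe sets was -0.21 (limma adjusted p = 0.453).

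**Figure D3:**
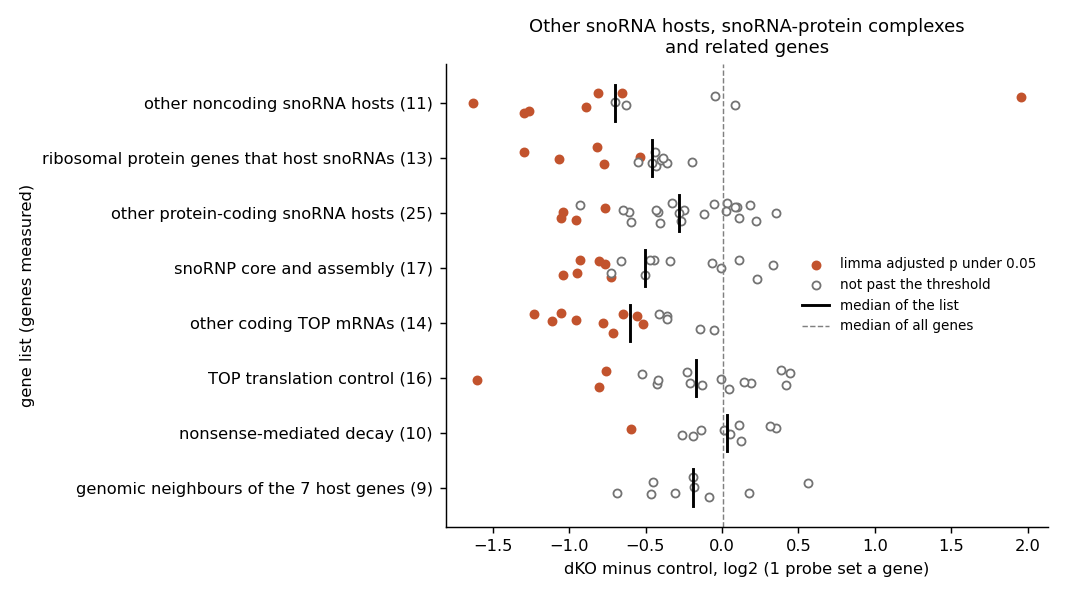
Difference between dKO and control means (horizontal axis, log2, 1 probe set a gene) for the genes of 8 lists (vertical axis, number measured in parentheses), with filled points past a limma adjusted p of 0.05, black bars at list medians and a dashed line at the median of all genes. List medians run from -0.70 for the other noncoding hosts to 0.03 for nonsense-mediated decay, and the 1 called rise, at 1.96, is Rian.

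The genes next to the hosts did not pass the test. The nearest gene on each side of a host in the RefSeq table gave 9 measured neighbours, of which 0 were called by limma, where 3.56% of all genes were called lower and 4.49% higher. At an unadjusted p under 0.05, 3 were lower and 1 higher, against 10.8% and 12.3% of all genes. Znfx1, an RNA helicase-like protein whose start overlaps that of Zfas1 on the other strand, read 5.18, 5.73 and 5.35 in controls and 5.93, 5.91 and 6.10 in dKO arrays. It was thus higher on every dKO array, by 0.56 ± 0.18 (SE, limma adjusted p = 0.114), where Zfas1 was lower on every dKO array. Slc3a2, the amino acid transporter heavy chain next to Snhg1 on the opposite strand, differed by 0.17 ± 0.16 (limma adjusted p = 0.611), and Wdr74, on the other side of Snhg1, by -0.69 ± 0.19 (0.0819). Wdr74 passed when values were averaged over the probe sets of each gene (limma adjusted p = 0.0474). The nuclear matrix protein Matr3, next to Snhg4, differed by -0.19 ± 0.14 (limma adjusted p = 0.529). Zbtb37, which overlaps Gas5, differed by -0.45 ± 0.18 (0.191). On the sides of Snhg12, Trnau1ap, a selenocysteine tRNA factor, differed by -0.31 ± 0.19 (0.407) and Rab42 by -0.47 ± 0.19 (0.202). Ube3a, the ubiquitin ligase that Snhg14 overlaps in antisense, was at 10.46, 10.68 and 10.72 in controls and 10.57, 10.60 and 10.45 in dKO arrays. Those values overlap, with a difference of -0.08 ± 0.14 (limma adjusted p = 0.796). The next gene to Snhg18, Sema5a, was at background in both groups. The sources used here do not say whether the labelled material keeps its strand, so signal from overlapping antisense genes cannot be told apart. The difference between a host and its neighbour was not tested.

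**Figure D4:**
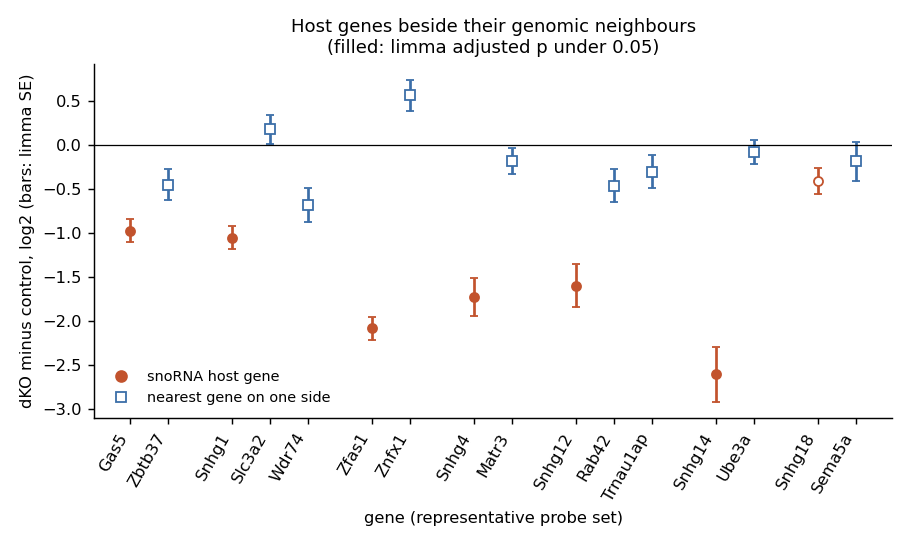
Difference between dKO and control means (vertical axis, log2, bars for limma's SE) for each host gene by its representative probe set (circles) and its measured nearest genes (squares), filled where past a limma adjusted p of 0.05. The 9 neighbours lie between -0.69 and 0.56, and the 6 hosts other than Snhg18 lie between -2.61 and -0.98.

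The genes whose values over the 6 arrays were most like the mean profile of the 14 host probe sets above background in at least 1 group were Eif3f, Nadk2, Rps7, Eif3e and Tmem231, out of 18186 genes compared. For 2 of the 14, both of Snhg14, that group was the controls alone, so they entered through the group where they are high. Their Pearson correlations were 0.9992, 0.9986, 0.9983, 0.9981 and 0.9980. The 6 arrays form 2 groups that differ, so these values mostly reflect the group difference and are a description. Nadk2, a mitochondrial NAD kinase, read 9.63, 9.75 and 9.66 in controls and 8.03, 8.12 and 8.13 in dKO arrays. Eif3f and Eif3e are subunits of the same initiation factor, and Rps7 is a ribosomal protein of the small subunit. Rps7 differed by -1.13 ± 0.13 and the cilium protein Tmem231 by -1.27 ± 0.12 (SE). The Eif3e difference, -0.52 ± 0.12, passed limma's test (adjusted p = 0.0486) but not after dropping any single array, nor in 3 further settings.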

How the data were processed

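The values analysed are those the authors deposited, 1 per probe set and array. They are RMA expression values per the submitters' processing notes, which name no version, and the deposited numbers are on a log2 scale, judged from their range of 1.49 to 13.85. RMA scales arrays to each other, so all changes are relative, and it compresses differences of dim and of very bright probe sets. RNA was amplified over 2 rounds before labelling, per the labels. Probe sets were named by a platform annotation table; 34945 had 1 gene symbol. Gene lists used 1 probe set a gene, that of highest mean. limma 3.58.1 (R 4.3.3; lmFit, eBayes; 4 residual and 3.19 prior degrees of freedom) was fitted to all 45037 non-control probe sets, dKO minus control, with Benjamini-Hochberg adjustment at 0.05, and tested on simulated data. SE is limma's. p-values measure the spread between pools. A mean up to 3.92, the highest of 3 TrpnX control probe sets, was called background. No batch is given in the sources used here. The number of arrays limits the precision.

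The members and lists were chosen with earlier results of these data known. Named genes followed a rule: all members, Myc and Mycn, the 3 smallest p-values of each list, the neighbours and the 5 most alike genes. Other list genes were chosen as examples after their values were seen. Alternatives were other scalings, a filter at a mean of 5, a trended robust prior, array weights, a replicate block, each array left out, and the mean over the probe sets of a gene.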

Additional observations from a re-analysis of the deposited data

How the results depend on the processing

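The count of host gene probe sets called lower ran from 9 to 11 over the scalings, the filter, the prior, the weights, the block and the leave-outs, with 0 called higher. The filter tested 12 of the 16, and averaging probe sets gives no such count. No host gene difference changed sign where it was computed. Of 659 alternative values for the 52 named probe sets, 2 changed sign, neither of them called: Sema5a became 0.28 with the mean over its probe sets, and Mycn 1425923_at ran from -0.1861 to 0.0757 with 1 array left out, positive without dKO replicate 3. With 1 array left out, 1338 to 1674 probe sets passed in all, against 3146. In the same leave-outs, falls numbered 1 to 3 for other noncoding hosts, 2 to 3 for ribosomal protein hosts, 3 to 4 for other coding hosts and 2 to 4 for snoRNA particle genes. They were 0 for decay genes, 4 to 5 for TOP mRNAs and 0 to 1 for TOP control, and the single rise among noncoding hosts ran from 0 to 1. Replicate numbers did not pair the arrays: deviations of equal numbers correlated at -0.0164, 0.00238 and 0.0134. With the replicate block, 1530 probe sets passed. The block gave 2 falls among other noncoding hosts, 1 among ribosomal protein hosts, 2 among snoRNA particle genes, 0 among decay genes, 4 among TOP mRNAs and 0 among TOP control genes. The trended robust prior gave 11 and 7 falls for ribosomal protein and other coding hosts. With probe set means the counts were 11 and 7, then 0 for decay genes and 1 for neighbours. Centring each array on its median left 0 decay genes. The cause of these moves was not tested, except that leave-outs and the block leave fewer degrees of freedom. Dim signal limits Snhg14 and Snhg18.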
